A study of Homo sapiens with 10 samples.

Results

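The nuclear genome encodes most subunits of the oxidative phosphorylation machinery, and these genes were followed here as 1 module in Rb CUT&RUN peak lists from ovarian cancer cells. The members were chosen by gene symbol alone. They are the protein-coding genes of the GENCODE version 44 annotation on the autosomes and chromosome X whose symbols start with NDUFA, NDUFB, NDUFC, NDUFS, NDUFV, UQCR, ATP5 or COX4 to COX8, together with SDHA, SDHB, SDHC, SDHD and CYC1, without readthrough transcripts. The rule gave 97 members of 19962 protein-coding genes. They comprised 37 genes of complex I, 4 of complex II, 10 of complex III, 19 of complex IV, 19 of complex V and 8 assembly factors of complex I, whose NDUFAF symbols also begin with NDUFA.

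The samples came from OVCAR-3 and Kuramochi, 2 established human cell lines of high-grade serous ovarian cancer, labelled as wild type. Each line had been exposed for 2 days to 300 nM INX-315, a selective inhibitor of the cyclin-dependent kinase CDK2, or to the same volume of its solvent DMSO. CUT&RUN cuts and releases the DNA around an antibody-bound protein in permeabilised cells. For each line there were 2 Rb libraries of either treatment, plus a control made with IgG2a from DMSO cells, 10 libraries in all. The study's reporting summary describes both libraries of a group as biological replicates of an experiment done a single time, and each line is 1 genetic background.

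Oxidative phosphorylation passes electrons from NADH and succinate through complexes I to IV to oxygen, and the ATP synthase, complex V, uses the resulting proton gradient to make ATP. Its subunits are encoded partly in mitochondrial DNA, which was not considered here, and mainly in the nucleus, where NRF1, GABP, which is an ETS-family factor, and YY1 are known regulators of many of these promoters. Rb is the retinoblastoma protein, which binds E2F transcription factors at promoters. Phosphorylation by cyclin-dependent kinases, CDK2 among them, releases it.

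A promoter was taken as 2000 bp upstream to 500 bp downstream of any annotated transcript start of a gene, and a gene had a promoter peak in a library where a deposited peak overlapped that window. The 8 Rb libraries held 5221 to 8794 peaks under DMSO and 13031 to 17281 under INX-315. The 2 IgG2a libraries held 195 and 257 peaks, and none of them lay at a member promoter. The strength of a peak is given as its summit height, the number of DNA fragments covering the summit divided by the genome-wide mean per base of the same library. That mean was 0.380 to 0.501 fragments under DMSO and 0.216 to 0.421 under INX-315, with the lowest value in an INX-315 library. Peaks were ranked within a library by their deposited −log10 p, and a percentile is a peak's place in that ranking. A member peak rested on 3 to 128 fragments at its summit. Heights therefore carry a counting error, and a promoter with no peak may hold signal below the detection limit of its library.

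More members had an Rb promoter peak under INX-315 than under DMSO in both lines. In OVCAR-3, 25 and 40 of the 97 members had a promoter peak in the DMSO libraries, and 71 and 81 in the INX-315 libraries. The Kuramochi counts were 21 and 39 with DMSO against 75 and 71 with INX-315. In each line, both INX-315 libraries lay above both DMSO libraries. With 2 libraries against 2, no permutation test of these counts can pass 0.05, so they are a description. The share of all protein-coding genes moved the same way. In OVCAR-3 the DMSO shares were 30.1% and 37.0%, against 56.0% and 64.9% with INX-315, and 26.3%, 39.0%, 59.8% and 55.3% in the same order in Kuramochi.

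**Figure D1:**
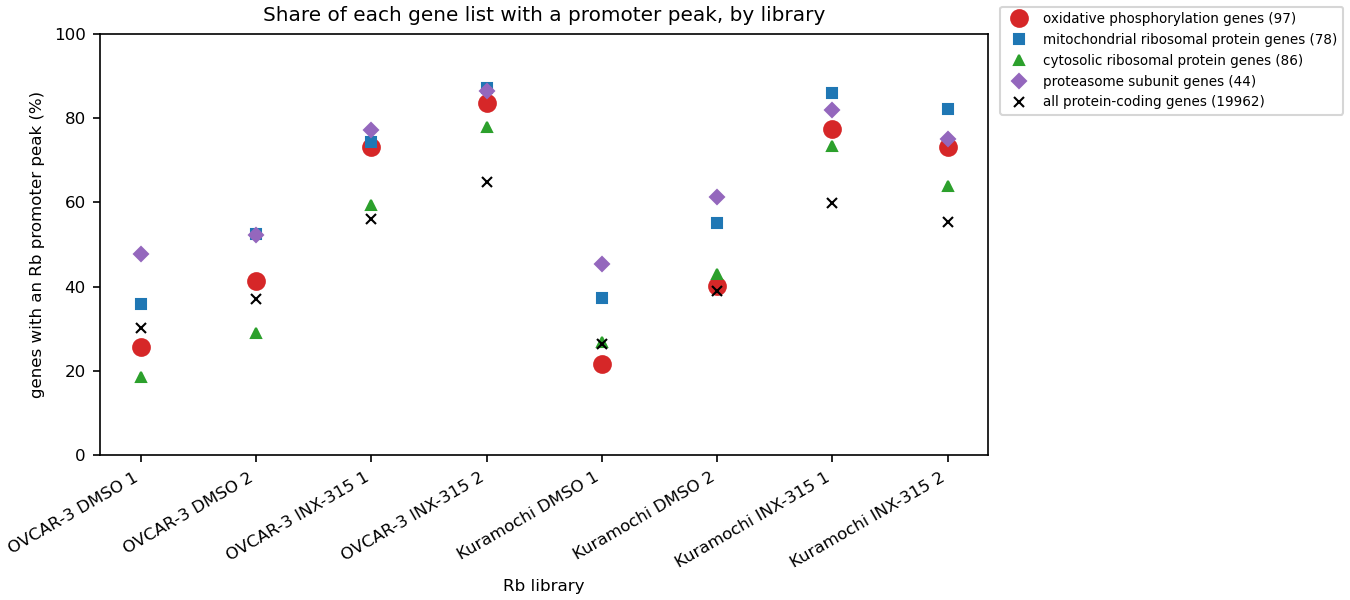
The share of genes with an Rb promoter peak (y axis, percent) in each of the 8 Rb libraries (x axis) for the 97 oxidative phosphorylation genes, 3 comparison lists and all 19962 protein-coding genes, with 1 point per list and library. Member shares ran from 21.6% to 41.2% with DMSO and from 73.2% to 83.5% with INX-315, where they lay above the share of all genes.

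Counting only members with a peak in both replicates, 21 members (21.6%) were marked under DMSO in OVCAR-3, where the background over all protein-coding genes was 26.8%. Under INX-315 there were 70 (72.2%), beside a background of 55.5%. In Kuramochi the counts were 19 (19.6%) under DMSO, background 24.9%, and 68 (70.1%) under INX-315, background 53.2%. The members thus lay above the genome-wide share under INX-315 in both lines. Under DMSO the direction depended on the count. With a peak in at least 1 replicate, 45.4% of members and 40.3% of all protein-coding genes were marked in OVCAR-3, and 42.3% and 40.5% in Kuramochi, so the members then lay above. These are counts without a test.

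A member was called gained in a line when it had a promoter peak in both INX-315 replicates but in neither of the DMSO replicates. There were 28 gained members (28.9%) in OVCAR-3 against a background of 16.2%, and 27 (27.8%) in Kuramochi against 14.0%. No member was lost in either line, where the backgrounds were 0.00501% and 0.0150%. The 21 and 19 members with peaks in all 4 libraries of a line, beside backgrounds of 26.7% and 24.8%, were the same as those marked under DMSO. Without DMSO replicate 2 of a line, the gained counts were 46 and 47, 47.4% and 48.5% of members beside 25.8% and 27.0% of all protein-coding genes. The counts also depended on the length of the peak lists. When every library of a line was limited to its top-ranked peaks, 6162 in OVCAR-3 and 5221 in Kuramochi, 25 and 28 members had a peak in both INX-315 libraries, 20 and 18 in both DMSO libraries, and 1 and 4 members were gained. Under that limit 25.8% and 28.9% of members had INX-315 peaks in both replicates, beside 29.0% and 25% of all protein-coding genes, so the member share lay above the genome-wide one in Kuramochi and not in OVCAR-3. For DMSO the shares were 20.6% and 18.6% of members beside 24.8% and 21.8%, and 2.33% and 2.03% of all protein-coding genes were gained. The larger gained counts thus rest on peaks that rank below those limits.

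Across both lines, 12 members had a promoter peak in all 8 libraries, NDUFA6, NDUFC1, NDUFS1, NDUFS3, NDUFS8, CYC1, UQCR10, UQCRH, COX8A, ATP5F1A, ATP5MC3 and NDUFAF6, which was 12.4% of members beside 18.8% of all protein-coding genes. Another 13 had a peak in all 4 INX-315 libraries and in no DMSO library, 13.4% beside 5.56%. These were NDUFA12, NDUFA9, NDUFB4, NDUFB5, NDUFS6, SDHB, UQCRFS1, COX5B, ATP5MC2, ATP5ME, ATP5MF, ATP5PD and NDUFAF4. No Rb peak was called in any library at 12 members, 12.4% beside 31.2%, namely NDUFA7, NDUFS4, SDHC, UQCRHL, COX4I2, COX6A2, COX7A1, COX7B, COX7B2, COX8C, ATP5MGL and ATP5PB. The other 60 members had peaks in 1 to 7 libraries in other combinations. With the shortened lists, the first pattern held for 11 members and the second for none. With canonical starts only, the first pattern held for 10 members, without ATP5F1A and NDUFC1.

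**Figure D2:**
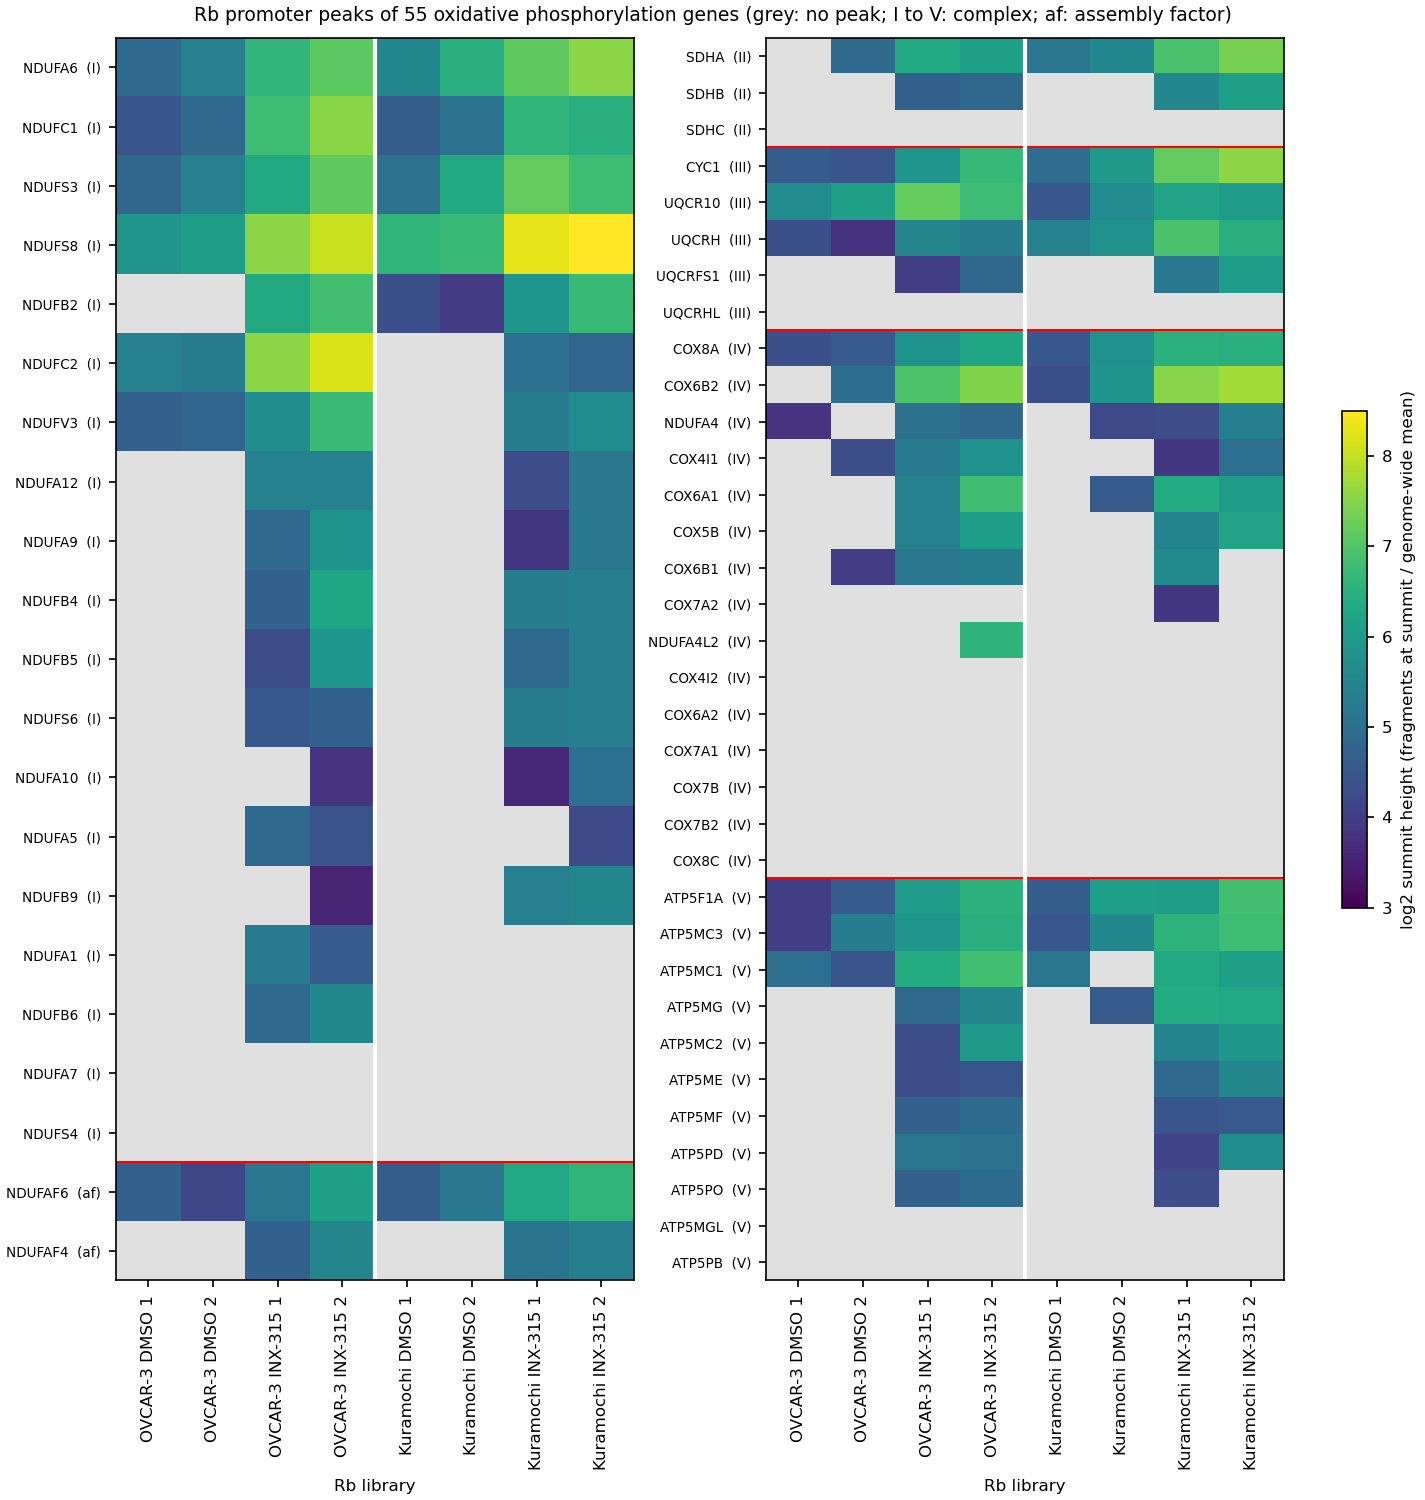
Summit height on a log2 scale (colour) of the promoter peak of 55 members named by rule (rows, grouped by complex, with the assembly factors marked af) in each of the 8 Rb libraries (columns, OVCAR-3 and Kuramochi parted by a white line), with grey cells where there was no peak. The DMSO columns hold 65 coloured cells against 157 in the INX-315 columns, and the 12 fully grey rows are the members with no peak in any library.

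Promoters of 6 members are shown to set the 3 patterns side by side, as RefSeq sequences of the GRCh38.p14 assembly from 250 bp before to 50 bp after the transcript start. COX8A at chr11:63974370-63974669 on the plus strand and NDUFA6 at chr22:42090723-42091022 on the minus strand had a peak in all 8 libraries. COX5B at chr2:97645812-97646111 (plus) and SDHB at chr1:17053983-17054282 (minus) had a peak in all 4 INX-315 libraries and no DMSO library. COX7B at chrX:77899218-77899517 (plus) and COX6A2, the muscle isoform of a complex IV subunit, at chr16:31428311-31428610 (minus) had no peak. Capitals mark matches, on either strand, to an E2F string (TTTGGCGC, TTTGCCGC, TTTCGCGC or TTTCCCGC), the NRF1 core string GCATGCGC, the ETS string CCGGAAGT or the YY1 string AAGATGGC. None of these strings overlaps another in the sequences shown.
COX8A: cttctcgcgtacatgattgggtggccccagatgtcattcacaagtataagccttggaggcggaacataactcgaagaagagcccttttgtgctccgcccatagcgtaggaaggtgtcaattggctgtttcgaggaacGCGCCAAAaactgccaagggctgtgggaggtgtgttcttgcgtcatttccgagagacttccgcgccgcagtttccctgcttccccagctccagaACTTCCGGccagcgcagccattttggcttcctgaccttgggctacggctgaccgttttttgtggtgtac
NDUFA6: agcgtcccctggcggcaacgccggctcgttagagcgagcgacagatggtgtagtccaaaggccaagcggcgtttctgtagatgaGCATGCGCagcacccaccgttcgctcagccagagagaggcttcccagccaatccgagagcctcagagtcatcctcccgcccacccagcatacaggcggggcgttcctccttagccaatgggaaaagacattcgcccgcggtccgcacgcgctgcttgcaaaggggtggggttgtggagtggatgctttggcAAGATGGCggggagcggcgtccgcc
COX5B: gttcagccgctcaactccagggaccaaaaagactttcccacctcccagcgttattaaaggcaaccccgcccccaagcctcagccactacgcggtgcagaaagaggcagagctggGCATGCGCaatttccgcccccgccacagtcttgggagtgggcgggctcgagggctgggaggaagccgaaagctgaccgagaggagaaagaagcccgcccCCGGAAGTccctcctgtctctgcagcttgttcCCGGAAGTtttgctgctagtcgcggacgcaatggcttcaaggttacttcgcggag
SDHB: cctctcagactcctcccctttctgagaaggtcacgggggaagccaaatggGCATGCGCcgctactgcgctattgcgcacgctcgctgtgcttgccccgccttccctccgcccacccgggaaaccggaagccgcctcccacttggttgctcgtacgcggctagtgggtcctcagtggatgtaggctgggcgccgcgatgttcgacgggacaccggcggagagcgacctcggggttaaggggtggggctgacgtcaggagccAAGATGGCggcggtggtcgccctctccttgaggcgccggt
COX7B: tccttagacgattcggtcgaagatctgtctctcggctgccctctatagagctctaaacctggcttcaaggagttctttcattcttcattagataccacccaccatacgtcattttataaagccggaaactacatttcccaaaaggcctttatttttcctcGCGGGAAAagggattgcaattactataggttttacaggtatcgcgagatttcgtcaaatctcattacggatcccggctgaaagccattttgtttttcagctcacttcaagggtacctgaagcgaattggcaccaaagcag
COX6A2: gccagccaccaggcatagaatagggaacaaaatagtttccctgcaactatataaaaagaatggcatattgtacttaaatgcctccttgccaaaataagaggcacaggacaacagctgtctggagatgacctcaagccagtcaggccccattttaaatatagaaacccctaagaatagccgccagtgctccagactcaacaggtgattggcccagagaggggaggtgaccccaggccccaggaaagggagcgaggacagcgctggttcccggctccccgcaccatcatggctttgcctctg
COX8A carries an E2F and an ETS match, NDUFA6 an NRF1 and a YY1 match, COX5B an NRF1 match and 2 ETS matches, and SDHB an NRF1 and a YY1 match. COX7B, with no Rb peak in any library, also carries an E2F match, and COX6A2 carries none of the 4 kinds. COX6A2 holds 5 CpG dinucleotides in its 300 bases, and the other 5 hold 14 to 30.

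Over the 77 members with a RefSeq promoter, the NRF1 core string was present in 15 (19.5%), beside 4.24% of the 15315 protein-coding promoters searched. The YY1 string was in 11 (14.3%) beside 3.98%, the ETS string in 10 (13.0%) beside 6.33%, and an E2F string in 8 (10.4%) beside 4.50%. The CHR string TTTGAA, an element of cell cycle promoters, was in 3 (3.90%) beside 12.1%. In mitochondrial ribosomal, cytosolic ribosomal and proteasome genes, in that order, the YY1 string was in 29.0%, 11.8% and 10.3% of promoters. The ETS string was there in 15.9%, 16.2% and 20.5%, and an E2F string in 8.70%, 5.88% and 10.3%. The NRF1 string, in 8.70%, 4.41% and 5.13%, was more frequent in members than in each of these groups, without a test. An E2F string was too, but its share in members, 10.4%, was close to the 10.3% of the proteasome genes. By pattern, the NRF1 string was found in 7 of the 11 promoters read from the 13 members with INX-315 peaks only, in 1 of 9 from the members with a peak in all 8 libraries and in 0 of 7 from those with no peak. Over all protein-coding genes of the same 3 patterns it was in 7.60%, 5.63% and 1.66% of promoters. The E2F strings were found in 1 of 11, 2 of 9 and 1 of 7 promoters of the same sets. A RefSeq promoter can lie at another start than the one where a member's peaks were measured. That was so for NDUFC1, a gene of the second set with an E2F string. Within 100 bp of the summit, 1 of the 85 members with a peak held an E2F string (1.18%), beside 4.27% of the 13730 protein-coding genes with a promoter peak. In that window the NRF1 string was at 4.71% of members beside 2.06%, the ETS string at 5.88% beside 2.58% and the YY1 string at 5.88% beside 2.27%. The NRF1 string lay that close to the summit in 1 of the 13 members with INX-315 peaks only and 1 of the 12 with a peak in all 8 libraries. The median number of CpG dinucleotides in the promoter was 23 for members, 22 for all promoters and 10 for the members with no peak. A string match is a description of the sequence and not a measured binding site.

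The summits of the member peaks lay close to transcription starts. Of 423 member peaks, 1 per member and library, 125 were from DMSO and 298 from INX-315 libraries. The summits of 400 (94.6%) were within 500 bp of the start used for that member, with a median position of -30 bp and quartiles of -212.5 and 107 bp. The start was the canonical one of the annotation except for ATP5F1A, NDUFC1 and NDUFA4L2, where another annotated start had a peak in more libraries. No peak was counted for 2 members at once. Many of these promoters are shared with other genes, and 30 of the 97 members (30.9%) had a protein-coding start on the opposite strand within 1000 bp, beside 10.1% of all protein-coding genes. At 15 of the 85 members with a peak, the summit of the strongest-ranked peak was nearer to a start of another protein-coding gene, so Rb signal at that gene and at the member cannot be told apart. These were NDUFA1, NDUFB1, NDUFC1, NDUFC2, NDUFS3, NDUFS6, NDUFAF7, NDUFAF8, SDHA, SDHD, UQCRQ, COX4I1, ATP5F1A, ATP5ME and ATP5PF.

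**Figure D3:**
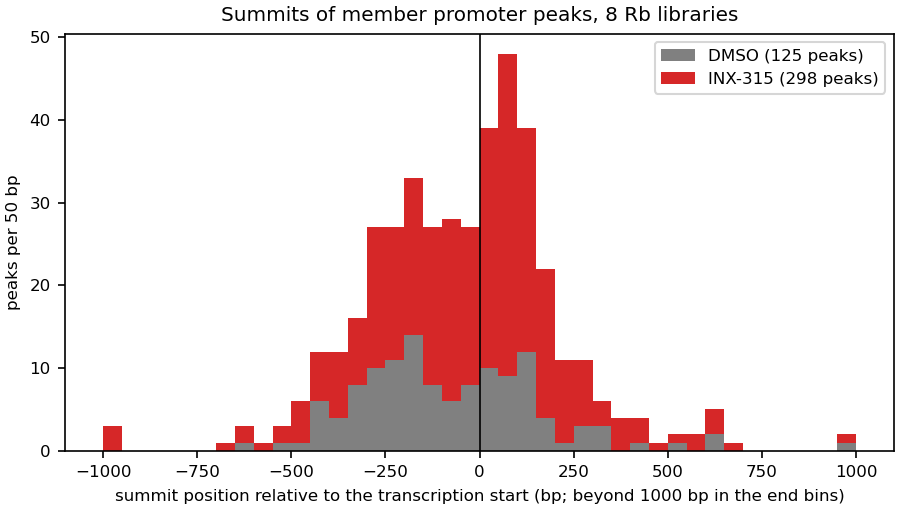
Position of the summit of each of the 423 member promoter peaks relative to the transcription start (x axis, base pairs, in bins of 50) for DMSO and INX-315 libraries, stacked. Peaks from both treatments gather around the start, and 419 of the 423 summits lay within 1000 bp of it.

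Complex I is the NADH dehydrogenase that feeds electrons from NADH into the chain. Of its 37 genes, 8 had a peak in both DMSO libraries and 26 in both INX-315 libraries in OVCAR-3, and the Kuramochi counts were 8 and 25. The background for every complex is the share of all protein-coding genes, 26.8% and 55.5% in OVCAR-3 and 24.9% and 53.2% in Kuramochi. The 7 nuclear core subunits, which carry the flavin and iron-sulfur clusters, differed among themselves. NDUFS8, an iron-sulfur subunit of the arm that faces the matrix, had the highest-ranked peaks of all members. Its summit heights were 58.6 and 67.8 with DMSO against 186 and 264 with INX-315 in OVCAR-3. In Kuramochi they were 96.6 and 105 with DMSO against 316 and 426 with INX-315. The INX-315 values lay above both DMSO values in each line, and its peaks stood at a mean percentile of 96.4 among the peaks of their libraries. The strongest-ranked peak of NDUFS8 spanned chr11:68030154-68031099, with its summit 109 bp upstream of the start.

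NDUFS3, another core subunit of the same arm, measured 28.3 and 41.9 with DMSO against 81.6 and 143 with INX-315 in OVCAR-3. In Kuramochi it measured 33.7 and 81.6 with DMSO against 146 and 111 with INX-315. The start of KBTBD4 lies 104 bp away on the opposite strand, so this peak lies in a promoter shared by both genes. NDUFS1, the largest core subunit, had heights of 22.2 and 19.9 with DMSO against 58.7 and 64.2 with INX-315 in OVCAR-3, and 33.7 and 50 with DMSO against 96.3 and 88 with INX-315 in Kuramochi. Other core genes were not marked in every library. NDUFV2 had INX-315 heights of 78.3 and 78.5 in OVCAR-3 and 42 and 50.9 in Kuramochi, with 1 DMSO peak, of 23.7 in Kuramochi replicate 2. NDUFV1, the subunit with the NADH binding site, had peaks in all 4 INX-315 libraries and in replicate 2 of each DMSO group. NDUFS7 had a peak in 1 INX-315 library of each line, at heights of 14.3 and 12.3.

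Accessory subunits surround the core and stabilise it. NDUFA6, a small accessory protein, measured 30.3 and 41.9 with DMSO against 97.9 and 138 with INX-315 in OVCAR-3. In Kuramochi it measured 47.2 and 86.9 with DMSO against 143 and 185 with INX-315, with the groups apart in both lines. Its strongest-ranked peak spanned chr22:42090125-42091225, with the summit 148 bp downstream of the start in coding sequence. NDUFC1, of the membrane arm, had heights of 22.2 and 29.9 with DMSO against 111 and 183 with INX-315 in OVCAR-3, and 24.7 and 34.2 with DMSO against 98.8 and 88 with INX-315 in Kuramochi. The strongest NDUFC1 summit lay in a UTR exon of the gene but only 81 bp from a start of NAA15, a subunit of an N-terminal acetyltransferase. NDUFC2, the neighbour of NDUFC1 in the enzyme, had a different set of peaks in each line, a difference that was not tested. It measured 42.4 and 39.9 with DMSO against 186 and 297 with INX-315 in OVCAR-3, whereas in Kuramochi it had no DMSO peak and heights of 32.1 and 27.8 with INX-315.

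Of the accessory genes, 5 had peaks in all 4 INX-315 libraries and none under DMSO. NDUFA12 and NDUFA9, of the matrix arm, had OVCAR-3 heights of 42.4 and 42.8, and 29.4 and 57.1. Their Kuramochi heights were 19.8 and 37.1, and 14.8 and 37.1. The NDUFA9 start lies 63 bp from that of AKAP3 on the opposite strand. NDUFB4 and NDUFB5, of the membrane arm, had OVCAR-3 heights of 26.1 and 76.1, and 19.6 and 59.4, and Kuramochi heights of 39.5 and 41.7, and 29.6 and 41.7. NDUFB5 shares its promoter with MRPL47, a mitochondrial ribosomal protein gene, whose start lies 156 bp away. NDUFS6, a zinc-binding subunit, had heights of 22.8 and 26.2 in OVCAR-3 and 39.5 and 41.7 in Kuramochi. Its OVCAR-3 summits were 47 and 27 bp downstream of its start, but its strongest peaks in Kuramochi lay 2087 and 967 bp upstream, the first of them nearer to MRPL36.

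Several accessory genes were gained in 1 line and had no DMSO peak in the other. NDUFA1 and NDUFB6 had OVCAR-3 heights of 39.2 and 23.8, and 29.4 and 47.6, and no peak in any Kuramochi library. The strongest-ranked NDUFA1 summit lay 165 bp from the NDUFA1 start and 66 bp from a start of RNF113A, so that peak cannot be assigned to either gene. NDUFA5 had 29.4 and 21.4 in OVCAR-3 and a single Kuramochi peak of 18.5 under INX-315. NDUFA10 and NDUFB9 were gained in Kuramochi, at 12.3 and 32.4, and 42 and 46.3, each with 1 OVCAR-3 peak under INX-315, of 14.3 and 11.9. These single peaks rested on 4 to 6 fragments and are near the lowest called in their libraries. NDUFA7, whose start lies 121 bp from that of the ribosomal protein gene RPS28, and NDUFS4, a matrix arm subunit mutated in Leigh syndrome, had no peak in any library.

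The 8 complex I assembly factors help to build the enzyme and are not part of it. All 8 had a peak in both INX-315 libraries of both lines, beside 3 of 8 in both DMSO libraries in OVCAR-3 and 1 of 8 in Kuramochi. NDUFAF6, the only one with a peak in all 8 libraries, measured 26.3 and 17.9 with DMSO against 35.9 and 71.3 with INX-315 in OVCAR-3, and 24.7 and 36.9 with DMSO against 79 and 97.3 with INX-315 in Kuramochi. Its INX-315 heights lay above its DMSO heights in Kuramochi and, by a narrower margin, in OVCAR-3. NDUFAF4 had no DMSO peak, with 26.1 and 45.2 in OVCAR-3 and 34.6 and 41.7 in Kuramochi under INX-315. NDUFAF3 and NDUFAF7 had a DMSO peak in both OVCAR-3 replicates and in replicate 2 of Kuramochi, and NDUFAF7 measured 48.5 and 31.9 with DMSO against 48.9 and 117 with INX-315 in OVCAR-3, where the lowest INX-315 height was close to the highest DMSO height. NDUFAF5 and NDUFAF8 had a DMSO peak in replicate 2 of both lines, NDUFAF1 in replicate 2 of Kuramochi and NDUFAF2 in replicate 2 of OVCAR-3.

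Complex II, succinate dehydrogenase, links the citric acid cycle to the chain and has only 4 subunits, all nuclear. SDHA, the flavoprotein, had 35.9 and 47.4 with DMSO against 121 and 167 with INX-315 in Kuramochi, and in OVCAR-3 29.9 in replicate 2 only under DMSO and 81.6 and 71.3 under INX-315. Its strongest-ranked summit lay 80 bp from the nearest SDHA start and 70 bp from that of CCDC127, so the peak cannot be assigned to either gene. SDHB, the iron-sulfur subunit, had no DMSO peak, and 26.1 and 28.5 in OVCAR-3 and 46.9 and 69.5 in Kuramochi under INX-315. SDHD, a membrane anchor, had peaks in all 4 INX-315 libraries and in replicate 2 of each DMSO group. SDHC, the other anchor, had no peak in any library, so 3 of the 4 subunit promoters carried Rb peaks under INX-315.

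Complex III, the cytochrome bc complex, had the highest shares under DMSO. Of its 10 genes, 4 in OVCAR-3 and 5 in Kuramochi had a peak in both DMSO libraries, and 8 and 9 did under INX-315. CYC1, the c-type cytochrome of the complex, measured 24.3 and 21.9 with DMSO against 58.7 and 102 with INX-315 in OVCAR-3, and 31.5 and 63.2 with DMSO against 146 and 185 with INX-315 in Kuramochi. UQCR10, a small membrane subunit, measured 50.5 and 69.8 with DMSO against 147 and 109 with INX-315 in OVCAR-3, and 22.5 and 50 with DMSO against 74.1 and 64.8 with INX-315 in Kuramochi. UQCRH, the hinge subunit that contacts cytochrome c, measured 20.2 and 14 with DMSO against 45.7 and 40.4 with INX-315 in OVCAR-3, and 42.7 and 55.3 with DMSO against 121 and 88 with INX-315 in Kuramochi. For these 3 genes, both INX-315 heights were above both DMSO heights in each line. UQCRFS1, the Rieske iron-sulfur protein, was without a DMSO peak and had INX-315 heights of 16.3 and 28.5 in OVCAR-3 and 37 and 64.8 in Kuramochi. UQCRHL, an intronless copy of UQCRH, had no peak, but reads from near-identical copies may be placed at either, so its absence is uncertain. The same holds for ATP5MGL, a copy of ATP5MG.

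Complex IV, cytochrome c oxidase, passes electrons to oxygen. Of its 19 genes, which include NDUFA4 and NDUFA4L2, 1 in OVCAR-3 and 2 in Kuramochi had a peak in both DMSO libraries. Under INX-315 there were 10 (52.6%) and 9 (47.4%), below the 55.5% and 53.2% of all protein-coding genes. That was the lowest share of any complex when its 7 restricted forms are counted. Over its 12 ubiquitous genes there were 9 (75%) in OVCAR-3 and 8 (66.7%) in Kuramochi, beside 70.3% and 67.6% in complex I. COX8A was the only gene of the complex with a peak in all 8 libraries, at 20.2 and 23.9 with DMSO against 55.5 and 76.1 with INX-315 in OVCAR-3, and 22.5 and 55.3 with DMSO against 91.4 and 88 with INX-315 in Kuramochi. Its E2F and ETS matches are in the sequence shown, and the summit of its strongest-ranked peak lay 16 bp downstream of the start in a UTR exon. COX5B had no DMSO peak and INX-315 heights of 42.4 and 66.6 in OVCAR-3 and 44.5 and 74.1 in Kuramochi. COX7B, a ubiquitous subunit, had no peak.

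Several subunits exist as a ubiquitous form and a form restricted to muscle, testis, lung or hypoxic cells. Of the 9 restricted or duplicate forms among the members, 7 had no Rb peak in any library: COX4I2, COX6A2, COX7A1, COX7B2 and COX8C of complex IV, UQCRHL of complex III and ATP5MGL of complex V. Of all protein-coding genes, 31.2% had no peak in any library, and the absence at UQCRHL and ATP5MGL is uncertain, as said above. The ubiquitous partners of these 7 forms differed. COX8A had peaks in all 8 libraries and UQCRH likewise, COX4I1, COX6A1 and ATP5MG in all 4 INX-315 libraries and in 1 DMSO library each, COX7A2 in 1 library, and COX7B in none. COX4I1 measured 39.2 and 54.7 in OVCAR-3 and 14.8 and 32.4 in Kuramochi under INX-315, and COX6A1 measured 42.4 and 112 and 84 and 64.8. ATP5MG measured 29.4 and 45.2 and 84 and 78.7 in the same groups. The strongest-ranked COX4I1 summit lay 448 bp from the nearest COX4I1 start and 315 bp from a start of EMC8. That peak cannot be assigned to either gene.

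The exceptions were COX6B2, the testis form of COX6B1, and NDUFA4L2, a hypoxia-induced relative of NDUFA4. COX6B2 had taller peaks than COX6B1. It measured 31.9 in replicate 2 only with DMSO against 124 and 176 with INX-315 in OVCAR-3, and 20.2 and 57.9 with DMSO against 180.3 and 213 with INX-315 in Kuramochi. COX6B1 had 4 peaks, of 16.0, 35.9, 40.4 and 49.4. The COX6B2 summits lay downstream of its start, at a median of 604 bp, inside the gene, and for the strongest-ranked of them the nearest start of another protein-coding gene was 5364 bp away. NDUFA4L2 had a peak in 1 library, OVCAR-3 INX-315 replicate 2, at 95.1, positioned at -2934 bp from the start used. That summit lay within the gene STAC3, and with canonical starts only NDUFA4L2 had no peak in any library. NDUFA4 had 32.6 and 28.5 in OVCAR-3 and 19.8 and 41.7 in Kuramochi under INX-315. Without the 9 restricted or duplicate forms, 69 and 67 of 88 members had peaks in both INX-315 libraries, and 21 and 18 in both DMSO libraries.

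Complex V is the ATP synthase, with a catalytic head, a rotating ring of c subunits and a peripheral stalk. Of its 19 genes, 5 and 2 had peaks in both DMSO libraries, and 15 and 14 in both INX-315 libraries, in OVCAR-3 and Kuramochi. ATP5F1A, the alpha subunit of the head, measured 16.2 and 23.9 with DMSO against 65.3 and 92.7 with INX-315 in OVCAR-3. In Kuramochi it measured 24.7 and 68.5 with DMSO against 66.7 and 116 with INX-315, so the groups overlapped there. ATP5F1B, the beta subunit that holds the catalytic sites, had a single peak of 11.9, in OVCAR-3 INX-315 replicate 2. The strongest-ranked ATP5F1A summit lay 203 bp from the nearest ATP5F1A start and 115 bp from a start of HAUS1. That peak cannot be assigned to either gene, so the contrast between ATP5F1A and ATP5F1B is uncertain.

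The c ring is encoded by 3 genes whose mature proteins are the same. ATP5MC3 measured 16.2 and 39.9 with DMSO against 58.7 and 88 with INX-315 in OVCAR-3, and 22.5 and 47.4 with DMSO against 93.8 and 111 with INX-315 in Kuramochi. ATP5MC1 measured 32.3 and 21.9 with DMSO against 84.8 and 114 with INX-315 in OVCAR-3, and in Kuramochi 35.9 in DMSO replicate 1 and 81.5 and 69.5 under INX-315. ATP5MC2 had no DMSO peak and INX-315 heights of 19.6 and 61.8 in OVCAR-3 and 44.5 and 60.2 in Kuramochi. The c-ring genes therefore ran from a peak in all 8 libraries to peaks under INX-315 alone. In the membrane part and stalk, ATP5ME, ATP5MF and ATP5PD had INX-315 peaks only. Their OVCAR-3 heights were 19.6 and 21.4 for ATP5ME, 26.1 and 30.9 for ATP5MF and 35.9 and 33.3 for ATP5PD. Their Kuramochi heights were 29.6 and 46.3, 22.2 and 23.2 and 17.3 and 50.9 in the same order. ATP5PO, the stalk subunit that confers oligomycin sensitivity, had 26.1 and 30.9 in OVCAR-3 and 19.8 in replicate 1 only in Kuramochi under INX-315. ATP5PB, the b subunit of the stalk, had no peak in any library.

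**Figure D4:**
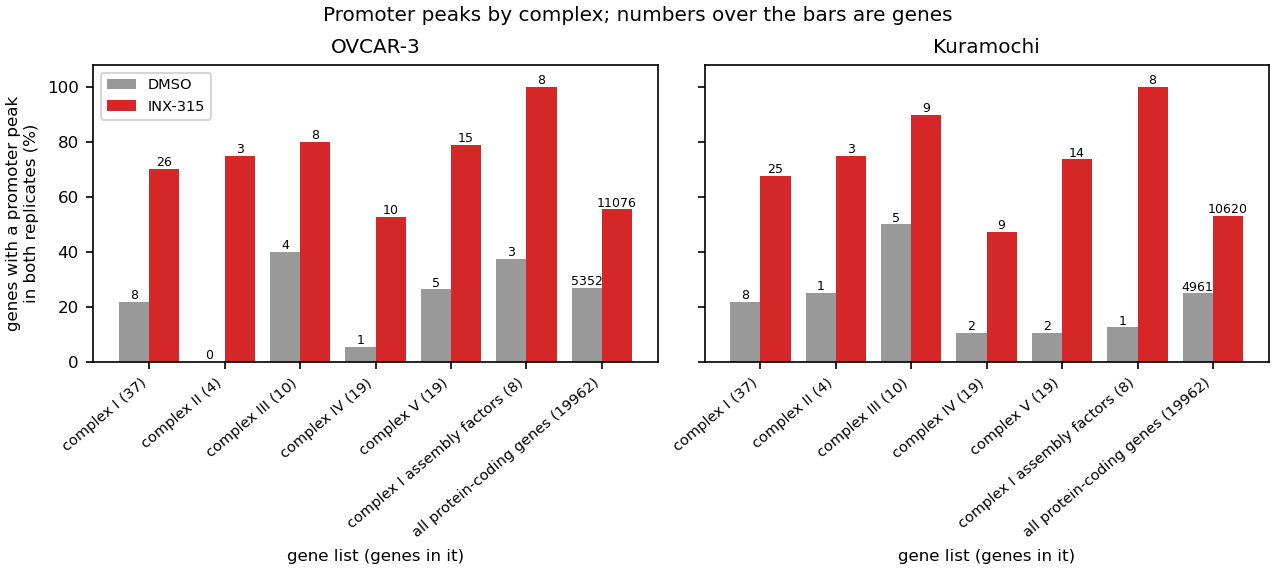
Share of the genes of each complex with a promoter peak in both replicates (y axis, percent) under DMSO (grey) and INX-315 (red) in each line, with the number of genes over each bar and the list size in brackets. In both lines every group of members has the taller bar under INX-315. Complex IV, with its 7 restricted forms, has the lowest INX-315 bar, below that of all protein-coding genes, and the 8 assembly factors have a bar at 100%.

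The height of peaks present in both treatments was compared by limma on log2 summit heights. The test covered regions with a peak in all 4 Rb libraries of a line, 4803 in OVCAR-3 and 4481 in Kuramochi, and an adjusted p under 0.1 was called. Being limited to regions called in every library, it says nothing of members gained under INX-315, and 1 further member region in each line was left out because its fragment numbers could not be recovered. All 22 member regions in OVCAR-3 were called higher under INX-315, where 98.4% of all regions were, and all 19 in Kuramochi, where 94.2% were. On the fold enrichment as deposited, 21 of 22 and 16 of 19 were called, beside 87.6% and 80.3% of all regions, without NDUFAF7 in OVCAR-3 and without UQCRC2, ATP5F1A and UQCR10 in Kuramochi. Both INX-315 heights lay above both DMSO heights in 22 of 22 and 18 of 19 member regions, beside 98.6% and 96.1% of all regions, with ATP5F1A in Kuramochi as the exception. The median log2 change of member regions was 1.59 in OVCAR-3 and 1.43 in Kuramochi, beside medians of 1.77 and 1.49 over all regions tested. limma gave every region of a line the same standard error, 0.41 in OVCAR-3 and 0.42 in Kuramochi.

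The largest changes among member regions in OVCAR-3 were at NDUFC2 (log2 change 2.51, limma adjusted p = 2.34e-08), NDUFC1 (2.47, adjusted p = 3.83e-08), the NDUFV3 region that starts at base 42878744 of chromosome 21 (2.01, adjusted p = 3.63e-06), ATP5F1A (1.98, adjusted p = 4.55e-06) and ATP5MC1 (1.89, adjusted p = 1.17e-05). In Kuramochi they were at COX6B2 (2.52, limma adjusted p = 2.26e-07), NDUFB2 (2.15, adjusted p = 4.35e-06), CYC1 (1.88, adjusted p = 3.43e-05), NDUFS8 (1.86, adjusted p = 3.98e-05) and SDHA (1.78, adjusted p = 7.41e-05). NDUFB2 is an accessory subunit of complex I with no DMSO peak in OVCAR-3 and INX-315 heights there of 81.6 and 117. NDUFV3, also accessory, had no DMSO peak in Kuramochi. Its other OVCAR-3 region, which holds the start used for its heights, changed by 1.46 (limma adjusted p = 0.000494), below the member median of 1.59. With the experiment done a single time, these p-values set each change against 1 spread between replicates, pooled over all regions of a line. They do not measure how closely the replicates of a given region agree. ATP5F1A in Kuramochi, where the groups overlapped, still had a limma adjusted p of 0.0109. The smallest changes were 0.94 at NDUFAF7 in OVCAR-3 and 1.05 at UQCR10 in Kuramochi, and these calls rested on single libraries. NDUFAF7 was at 0.31 without INX-315 replicate 2 (limma adjusted p = 0.46) and at 0.64 without DMSO replicate 2 (adjusted p = 0.27). UQCR10 was at 0.47 without DMSO replicate 1 (limma adjusted p = 0.22) and at 0.95 without INX-315 replicate 1 (adjusted p = 0.14). ATP5F1A in Kuramochi was at 0.36 without DMSO replicate 1 (limma adjusted p = 0.34) and at 0.70 without INX-315 replicate 2 (adjusted p = 0.29).

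After each library was centred on its median over all regions, no member region was called in either direction by limma, where 8.68% of regions were called in OVCAR-3 and 6.34% in Kuramochi. At an unadjusted p under 0.05 there were 4 member regions in OVCAR-3 and 1 in Kuramochi, beside 21.0% and 20.8% of all regions, and 5 of 22 and 9 of 19 member regions had a positive centred change. The study's methods describe no spike-in scaling for these libraries, and the yeast genome stands among its references with no stated use. No such scaling entered these heights, so an increase shared by all regions cannot be told apart from a difference in enrichment between libraries. In 1 model over all 8 libraries, the change under INX-315 did not differ detectably between the lines at any of the 12 member regions, nor at any of the 3163 regions tested (0% called; 118 regions and 0 member regions had an unadjusted p under 0.05).

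**Figure D5:**
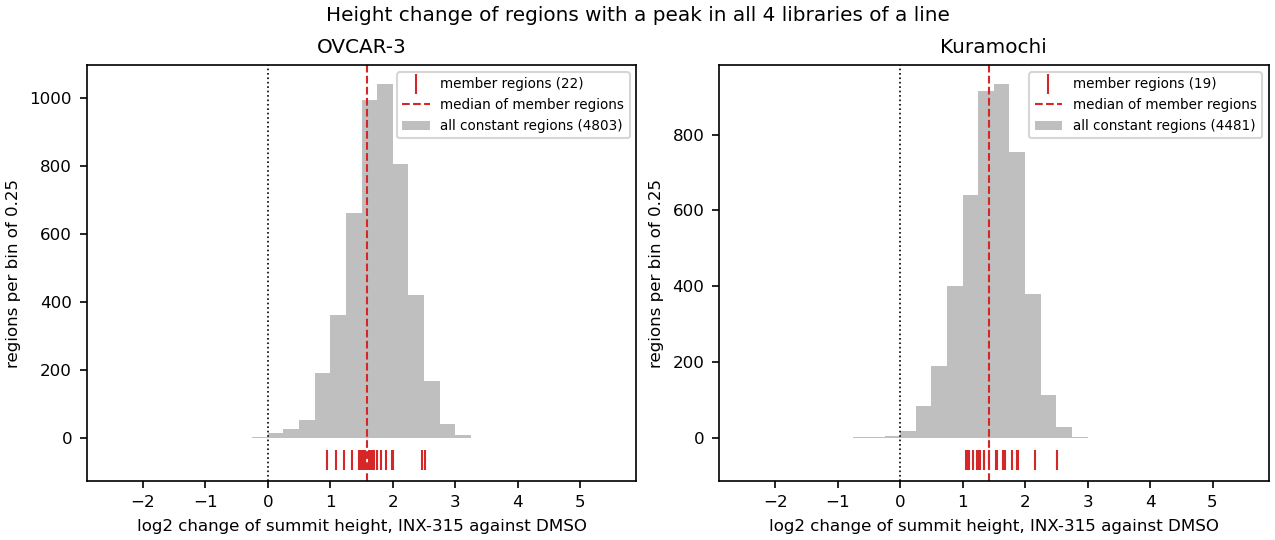
Number of regions (y axis) by log2 change of summit height under INX-315 against DMSO (x axis, bins of 0.25) for all regions with a peak in all 4 libraries of a line (grey bars), with member regions as red ticks and their median as a dashed line. All member ticks lie to the right of 0, within the spread of the grey bars, and the medians of 1.59 and 1.43 are close to those of all regions.

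Other genes of the pathway and 3 gene groups of similar size gave the frame for these counts. Of 58 further pathway genes, mostly assembly factors and regulators of respiratory genes, 30 and 25 had a peak in both DMSO libraries of OVCAR-3 and Kuramochi, and 48 and 51 did under INX-315. Of 78 mitochondrial ribosomal protein genes, 27 had DMSO peaks in both replicates in each line, and 58 and 61 had INX-315 peaks. Of 86 cytosolic ribosomal protein genes, the counts were 13 and 22 with DMSO against 50 and 53 with INX-315. Of 44 proteasome subunit genes, they were 20 and 18 with DMSO against 34 and 33 with INX-315. The member share under INX-315, 72.2% and 70.1%, lay between those of the cytosolic ribosomal genes, 58.1% and 61.6%, and the proteasome genes, 77.3% and 75%. Gained shares in OVCAR-3 and Kuramochi were 20.5% and 23.1% for the mitochondrial and 26.7% and 19.8% for the cytosolic ribosomal genes. They were 25% and 13.6% for the proteasome genes and 17.2% and 19.0% for the further pathway genes. For the members they were 28.9% and 27.8%, beside 16.2% and 14.0% of all protein-coding genes. None of these groups had a lost gene in either line, and the differences between the groups were not tested.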

How the data were processed

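Deposited were peak lists of 10 CUT&RUN libraries. Per the study's methods and the submitters' processing notes, the authors aligned reads to hg38 with Bowtie2 2.3.4.1 and called peaks per library with MACS2 2.2.7.1 against IgG at a q threshold of 0.05. The deposited values of each peak are the fold enrichment, a ratio over the local background, −log10 p and q values, and a score. From the deposited fold enrichment and −log10 p, the whole number of fragments at the summit and the genome-wide mean were recovered (relative tolerance 3e-05), which gave the summit height.

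Genes and starts came from GENCODE version 44, promoter sequences from RefSeq (GRCh38.p14, 77 of 97 members matched). Where a member has several annotated starts, heights were taken at the start with peaks in most libraries, and the peak with the highest −log10 p there was used (2 of 423 peaks lay at another start). Heights were compared with limma 3.58.1 in R 4.3.3, with Benjamini-Hochberg adjustment over all regions of a line. The limma step was tested on simulated data of the same regions, where it called 100 of 100 regions changed 4-fold in OVCAR-3 and 97 of 100 in Kuramochi, and 23 and 21 of 100 changed 2-fold, with 12 and 21 false calls among the unchanged regions. The simulation added a fixed spread to the counting error, not the spread seen in the data, and left most regions unchanged. It therefore says little about calls made where nearly all regions rise, as they did here. Counts used Python 3.11.15 with pandas 2.3.3, numpy 2.4.6 and scipy 1.17.1.

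The members, gene lists and tests were chosen with earlier results of these data known. The role of ATP5MGL was added after the files were seen. Named genes were, per complex and among the assembly factors, up to 3 with the highest mean percentile among members with a peak in all 8 libraries, all members gained in both lines or in 1 line with no DMSO peak in the other, any lost member, restricted isoforms with their partners, all members with no peak, and the 5 largest called changes per line. NDUFS1, NDUFV1, NDUFV2, NDUFS7, SDHD, ATP5F1B and the other assembly factors were further named to complete their groups, after their values were seen. Alternatives covered the promoter window, peak threshold, list length, replicates, scaling and the replicate block.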

Additional observations from a re-analysis of the deposited data

How the results depend on the processing

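Of 72 recalculated counts under other settings, 58 stayed within 1.5 times the reported count. When a peak in at least 1 of 2 replicates was enough, 44 members had a DMSO peak in OVCAR-3 and 41 in Kuramochi, above the share of all genes instead of below it. With peak lists of the same length, 25 and 28 members had INX-315 peaks and 1 and 4 were gained. With libraries centred on their median, 0 member regions were called in either line, and in 1 fit over all 8 libraries 12 were called in each, since 13 member regions had a peak in all 8 and 1 of them lacked recovered fragments. For the other settings named here the cause was not tested. Leaving out 1 library at a time gave 25 to 40 members with DMSO peaks in OVCAR-3 and 21 to 39 in Kuramochi, the highest without DMSO replicate 1, where the group is then the library with more peaks. It gave 71 to 81 and 71 to 75 members with INX-315 peaks, 29 to 46 and 29 to 47 gained members, and 20 to 22 and 17 to 19 called regions. The calls lost were at ATP5MC3 and UQCR10 without DMSO replicate 1, NDUFAF7 and NDUFAF6 without DMSO replicate 2 and NDUFAF7 without INX-315 replicate 2 in OVCAR-3. In Kuramochi they were at ATP5F1A and UQCR10 without DMSO replicate 1, UQCRH and UQCR10 without INX-315 replicate 1, and UQCRC2 and ATP5F1A without INX-315 replicate 2. On the deposited fold enrichment 21 and 16 regions were called. In those fits the lone library is assumed to vary like the other group. The 10 largest log2 changes named lost their call only under centring.

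With the replicate number as a block, 22 member regions were called in OVCAR-3 and 19 in Kuramochi, as without it, and 4745 and 4341 of all regions were called higher. The numbers were not shown to pair the samples, since deviations of libraries with the same number correlated at -0.05 and 0.003. The block changed no call of a named region. Depth limits the peaks near 5 fragments, and 3 fragments was the lowest at a member peak.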

Other observations

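Among further genes of the pathway, the assembly factors of complex II had a more even set of peaks than its subunits. SDHAF1, SDHAF2 and SDHAF3 had a promoter peak in all 8 libraries and SDHAF4 in 7. SDHAF1 reached heights of 74.8 and 79.8 with DMSO against 173 and 245 with INX-315 in OVCAR-3. Its Kuramochi heights were 60.7, 97.4, 183 and 213 in the same order. BCS1L, which inserts the Rieske protein into complex III, reached 129 and 128 with DMSO against 274 and 330.5 with INX-315 in OVCAR-3. In Kuramochi it reached 115, 184, 274 and 324. Both genes were chosen after their values were seen, and the difference from the subunits was not tested.

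Regulators of respiratory genes and of mitochondrial DNA differed in their Rb peaks. NRF1, ESRRA, YY1, PPARGC1B, TFAM and TFB2M had a promoter peak in all 8 libraries, as 18.8% of protein-coding genes did, and GABPA and GABPB1 in 7. The GABPA peaks are those counted at ATP5PF, whose promoter it shares. POLG had a peak in 6 libraries, PPRC1 and TWNK in 5 and POLG2 in 2. POLRMT, the mitochondrial RNA polymerase, had peaks in the 4 INX-315 libraries only. PPARGC1A, the coactivator PGC-1alpha, had no peak in any library.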
